A study of Mus musculus with 15 samples.

Results

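Liver gene expression after every-other-day fasting was compared with that under ad libitum feeding. The comparison takes in all genes of the deposited count table, and its samples were chosen by their labels alone: 5 libraries labelled EOD and 5 labelled AL, which are 10 of the 15 RNA-seq libraries of the series. All groups were C57BL/6 mice, aged 3 months when the regimens began and 6 months when they ended. AL mice fed freely for the 3 months, and EOD mice underwent 24-hour fasts on the every-other-day schedule. The remaining 5 libraries came from mice fasted for 16 hours (IF16) and serve here only to test the difference between the fasting regimens. RNA came from the left lateral lobe. Not given by the labels used here are the sex of the mice, the time since the last meal, the clock time at which tissue was taken and whether libraries stand for separate mice, so p-values measure the spread between libraries.

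As background, the fed liver stores glucose as glycogen and turns the surplus into fatty acids, a programme run by the transcription factors SREBP-1c and ChREBP, while SREBP-2 drives the enzymes that make cholesterol. In the fasted liver, fatty acids from adipose tissue activate the nuclear receptor PPARA, whose target genes take fatty acids through mitochondrial and peroxisomal oxidation to ketone bodies. Feeding time also sets the phase of the liver's circadian clock, a loop in which the activators Clock and Arntl (Bmal1) drive their own repressors.

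Library totals were between 28129883 and 33383641 counts in AL and between 29581097 and 37802749 in EOD, so that 3 counts, taken as the floor, correspond to 0.078 to 0.107 CPM, the unit of counts scaled to library size used throughout. The first principal component of log2 CPM, with 35.1% of the variance, held all EOD libraries between 20.1 and 48.4 and all AL libraries between -41.7 and -24. AL replicates 4 and 5 stood apart from AL replicates 1 to 3 on the second component and carried high counts of acute phase and neutrophil genes. Male-biased liver genes summed to 28410 and 29290 CPM in these 2, against 7808 to 12410 CPM in AL replicates 1 to 3. Female-biased genes summed to 40.23 and 31.13 CPM, against 61.85 to 81.43 CPM. The reason was not tested. EOD replicate 5 had the highest mitochondrially encoded share of the EOD libraries, 10.1% against a group mean of 6.89%. Named genes whose call was lost without AL replicates 4 and 5 are given with and without these. Other results are given without these libraries, or without EOD replicate 5, only where stated. Of 12 hepatocyte marker genes, 11 were not called and 1, Ttr, fell, with log2 difference -0.41. Of the same genes 5 were higher and 1 lower without AL replicates 4 and 5, and without EOD replicate 5, 2 were higher and 2 lower.

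Across 13837 tested genes, 2430 were higher and 2437 lower in EOD at an adjusted p under 0.05 (edgeR's quasi-likelihood test, Benjamini-Hochberg), which is 17.6% in each direction and 35.2% together. Counts of genes in a named group are to be read against those shares. A difference of at least 2-fold was reached by 449 of the higher and 689 of the lower genes, and one of at least 4-fold by 51 and 163. Every EOD library was above every AL library for 1140 of the called genes and below for 1364. In 4133 of the 4867 called genes the IF16 mean lay between the AL and EOD means. Called genes are selected for a gap between AL and EOD, which favours such a position. The share over all tested genes was not counted, so this number does not measure a graded response. The median log2 difference of all tested genes was -0.01.

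**Figure D1:**
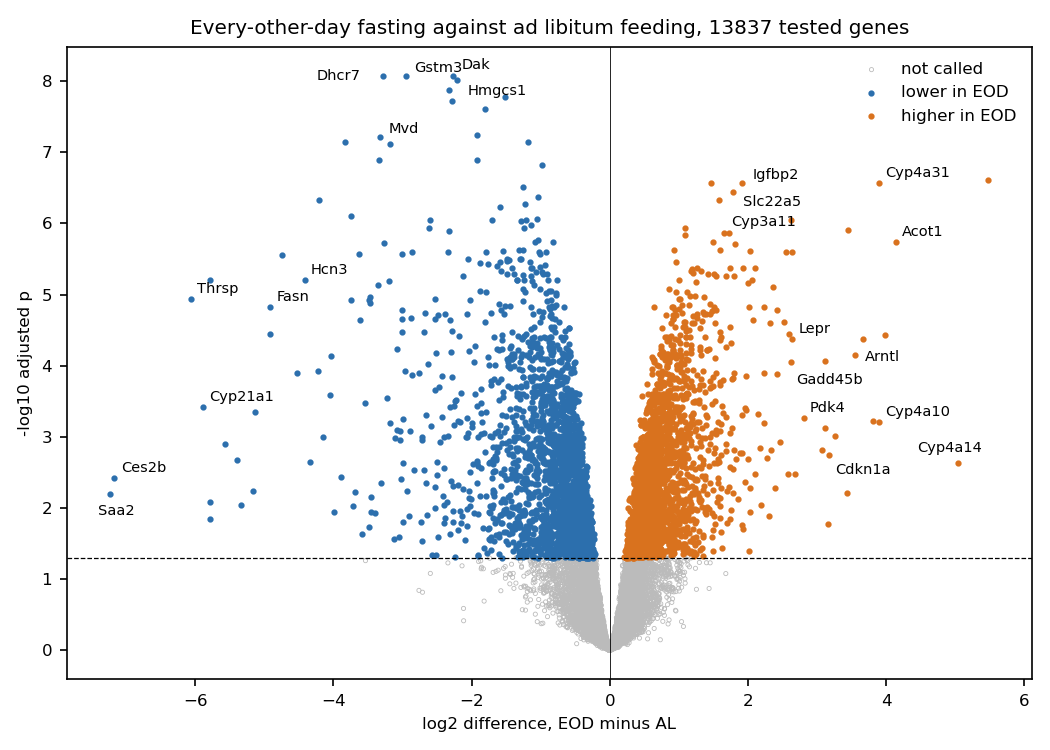
Each point is a tested gene, with the log2 difference EOD minus AL on the x axis and -log10 of the adjusted p on the y axis. Filled points passed the threshold of 0.05, and labels name genes described in the text. Thrsp and Fasn lie far to the left, and Cyp4a14 and Acot1 far to the right.

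Transcripts of sterol synthesis were lower in EOD at nearly every step. Of 21 tested genes of cholesterol synthesis, 18 fell and none rose, and the median log2 difference was -2.23. Dhcr7, the last reductase of the pathway, was at 103, 99.5, 108, 129.6 and 135 CPM in the AL libraries and at 13.4, 11.7, 15.2, 10.2 and 8.49 CPM in the EOD libraries. Mvd, which makes isopentenyl pyrophosphate, was at 41.5, 48.2, 33.9, 25.6 and 22.8 CPM in the AL libraries and at 2.94, 3.99, 4.62, 3.08 and 2.57 CPM in the EOD libraries. No AL library came within reach of an EOD library for either gene, and EOD was 9.75-fold lower for Dhcr7 (log2 difference -3.29 ± 0.19 SE, adjusted p = 8.43e-09) and 10-fold lower for Mvd (log2 difference -3.32 ± 0.23 SE, adjusted p = 6.15e-08).

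Squalene epoxidase, Sqle, stood at 37.3, 37.1, 47.5, 76.7 and 68.2 CPM in the AL libraries and at 4.34, 3.64, 6.18, 3.65 and 2.1 CPM in the EOD libraries, a 13.4-fold difference (log2 difference -3.75 ± 0.39 SE, adjusted p = 1.2e-05). The AL libraries were themselves unequal for Sqle, with replicates 4 and 5 the highest. Farnesyl diphosphate synthase, Fdps, fell by 3.84 on the log2 scale and the sterol dehydrogenase Nsdhl fell by 3.35. Squalene synthase, Fdft1, fell by 1.46 and Hmgcs1, the cytosolic synthase at the start of the route, fell by 2.22 on the log2 scale.

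The control of SREBP and of lipoprotein uptake moved in both directions, with 3 higher and 8 lower of 15 tested genes. Srebf1, the gene of SREBP-1, was at 532, 354, 316, 169 and 207 CPM in the AL libraries and at 23.5, 20.5, 36.2, 22.5 and 39.1 CPM in the EOD libraries. AL replicate 1 was highest and AL replicates 4 and 5 lowest within AL, but no EOD library came near them, and Srebf1 was 11.1-fold lower (log2 difference -3.48 ± 0.37 SE, adjusted p = 1.3e-05). Srebf2 also fell (log2 difference -0.76, adjusted p = 0.000164). The 2 INSIG proteins, which hold SREBP in the endoplasmic reticulum, went opposite ways. Insig1 was at 638, 656, 359.6, 374 and 345 CPM in the AL libraries and at 176, 147, 242, 97.5 and 108 CPM in the EOD libraries, and Insig2 was at 128, 76, 86, 67.4 and 70.4 CPM in the AL libraries and at 341, 261, 262, 263 and 175 CPM in the EOD libraries. Insig1 fell 3.09-fold (log2 difference -1.63 ± 0.25 SE, adjusted p = 0.00017) and Insig2 rose 3.04-fold (log2 difference 1.6 ± 0.29 SE, adjusted p = 0.000654), in both cases without overlap between the groups.

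Mylip (Idol), a ubiquitin ligase that sends lipoprotein receptors to the lysosome, averaged 3.98 ± 1.05 CPM in AL and 10.9 ± 1.83 CPM in EOD (mean ± SD, n = 5 each) and rose 2.74-fold (log2 difference 1.45 ± 0.17 SE, adjusted p = 1.35e-05). The cholesterol carrier Stard4 fell by 1.87 on the log2 scale.

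Promoters of 5 sterol and lipogenic genes that fell, chosen after their values and motif matches were seen, are printed to show what the affected genes carry near their starts. Sequences are from RefSeq on GRCm38.p6 and run 5′ to 3′ on the gene's strand over the 150 bases before the annotated start. Hmgcs1 lies at chr13:119690201-119690350, plus strand, Dhcr7 at chr7:143830064-143830213, plus strand, Mvd at chr8:122443423-122443572, minus strand, Fasn at chr11:120824548-120824697, minus strand and Thrsp at chr7:97417551-97417700, minus strand. Capitals mark the CCAAT box (CCAAT, or ATTGG on the other strand), bound by the SREBP partner NF-Y, and in Hmgcs1 also the sterol response element TCACNCCAC.
Hmgcs1: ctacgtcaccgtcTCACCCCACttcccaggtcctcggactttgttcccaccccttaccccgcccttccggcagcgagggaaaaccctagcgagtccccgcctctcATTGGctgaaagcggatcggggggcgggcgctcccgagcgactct
Dhcr7: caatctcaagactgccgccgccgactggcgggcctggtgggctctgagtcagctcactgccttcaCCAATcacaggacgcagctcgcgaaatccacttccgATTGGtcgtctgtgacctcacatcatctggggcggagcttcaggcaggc
Mvd: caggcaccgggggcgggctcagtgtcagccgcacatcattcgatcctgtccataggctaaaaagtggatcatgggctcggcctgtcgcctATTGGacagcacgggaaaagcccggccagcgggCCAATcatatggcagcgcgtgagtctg
Fasn: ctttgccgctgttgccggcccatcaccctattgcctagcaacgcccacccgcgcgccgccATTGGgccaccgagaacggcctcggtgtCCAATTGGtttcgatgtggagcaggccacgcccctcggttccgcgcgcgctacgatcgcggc
Thrsp: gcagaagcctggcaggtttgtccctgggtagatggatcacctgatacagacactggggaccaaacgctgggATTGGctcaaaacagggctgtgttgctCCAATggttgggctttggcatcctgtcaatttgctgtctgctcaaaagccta
In the 250 bases before a start, on either strand, CCAAT was present in 15 of the 16 cholesterol synthesis genes with a RefSeq promoter (93.75%) and in 8 of 14 fatty acid synthesis genes (57.14%). The share was 37.49% over all 27025 genes of the promoter table, 39.5% among genes called higher and 44.12% among genes called lower. TCACNCCAC was found in 1.22% of all genes, in 1 of the 16 cholesterol synthesis genes and in 1 of the 14 fatty acid synthesis genes. These matches describe letters only.

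Transcripts of fatty acid synthesis fell as deeply. Of 17 tested genes 13 fell and none rose, with a median log2 difference of -2.33. Fasn, fatty acid synthase, was at 1613, 1503, 948, 384 and 409 CPM in the AL libraries and at 30.7, 28.8, 36.8, 30.7 and 34.4 CPM in the EOD libraries. The EOD libraries were nearly equal, every AL library was far above them, and AL replicates 4 and 5 were the lowest of their group. Fasn fell 30.1-fold (log2 difference -4.91 ± 0.51 SE, adjusted p = 1.49e-05), and without AL replicates 4 and 5 the log2 difference was -5.37. Thrsp, a lipogenic regulator that responds to carbohydrate and thyroid hormone, was at 1639, 1408, 1227, 466 and 591 CPM in the AL libraries and at 10.2, 16.9, 22.8, 17.8 and 12 CPM in the EOD libraries. That is a 67-fold decrease (log2 difference -6.07 ± 0.60 SE, adjusted p = 1.17e-05), again with no overlap.

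Genes for the supply of acetyl units and of malonyl-CoA fell with them. ATP citrate lyase, Acly, averaged 264 ± 73.3 CPM in AL and 45.6 ± 7.81 CPM in EOD (mean ± SD, n = 5 each) and fell 5.8-fold, and its mitochondrial citrate exporter Slc25a1 fell by 1.01 on the log2 scale. Both acetyl-CoA carboxylases fell, with log2 differences of -2.34 for Acaca and -3.01 for Acacb, whose product restrains mitochondrial fatty acid entry. Mid1ip1, which promotes polymerisation of acetyl-CoA carboxylase, fell by 3.01 (adjusted p = 2.73e-06). The elongase Elovl6 was at 169, 267, 169.7, 102 and 77.5 CPM in the AL libraries and at 10.9, 13.8, 16, 11.7 and 11.5 CPM in the EOD libraries, a 12.3-fold decrease (log2 difference -3.62 ± 0.40 SE, adjusted p = 2.28e-05). The desaturase Scd1 was at 8363, 7031, 4890, 3002 and 3494 CPM in the AL libraries and at 1325, 3021, 2875, 2362 and 1666 CPM in the EOD libraries. Here the groups overlapped, because AL replicate 4 was below the highest EOD library, and the decrease was 2.38-fold (log2 difference -1.25 ± 0.30 SE, adjusted p = 0.0044). Malic enzyme, Me1, also overlapped and fell by 1.3 (adjusted p = 0.0173). Mlxipl, the gene of ChREBP, was not called (log2 difference -0.43, adjusted p = 0.203), but passed without EOD replicate 5 (adjusted p = 0.035).

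Of 11 tested genes of the pentose phosphate pathway and NADPH supply, 7 fell and 2 rose. Pgd of the pentose phosphate pathway was at 57.8, 47.5, 45.4, 41.8 and 42.8 CPM in the AL libraries and at 14.6, 12.2, 14.1, 12.7 and 13.4 CPM in the EOD libraries, a 3.51-fold decrease with well separated groups (log2 difference -1.81 ± 0.12 SE, adjusted p = 2.51e-08). Transketolase, Tkt, fell by 1.3 and transaldolase, Taldo1, fell by 0.98 on the log2 scale. Nnt, the mitochondrial transhydrogenase, rose by 0.65. Of the triglyceride synthesis list, 5 of 13 fell and 1, the acyltransferase Agpat9, rose (log2 difference 1.08 ± 0.21 SE, adjusted p = 0.001). Pnpla3, the lipid droplet hydrolase whose transcription follows SREBP-1c, was at 7.1, 22.6, 1.7, 2.35 and 2.06 CPM in the AL libraries and at 0.104, 0.441, 0.32, 0.431 and 0.721 CPM in the EOD libraries. It was highest in AL replicate 2 and near the floor in EOD replicate 1, so no fold is given, and it was called lower (adjusted p = 0.001).

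**Figure D2:**
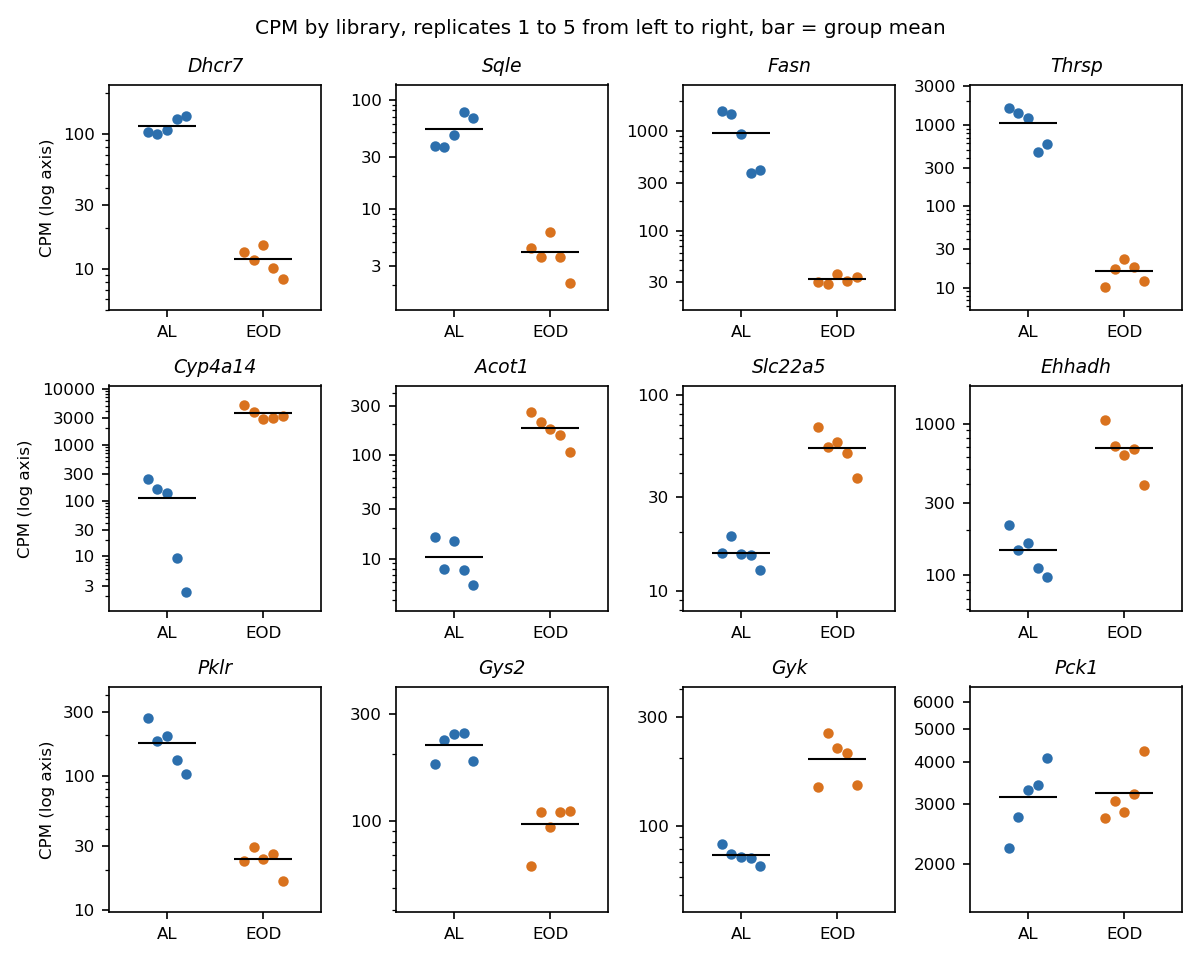
Each point is one library's CPM (log axis) for 12 genes, with AL in blue and EOD in orange, and bars at the group means. Sterol and lipogenic genes (Dhcr7, Sqle, Fasn, Thrsp) are lower in every EOD library, and fatty acid oxidation genes (Cyp4a14, Acot1, Slc22a5, Ehhadh) are higher in every EOD library. Pck1 overlaps completely.

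Genes of mitochondrial fatty acid oxidation rose across the pathway. Of 26 tested genes 23 were higher in EOD and none lower, and the median log2 difference was 0.71. The carnitine transporter Slc22a5 (Octn2) was at 15.7, 19.1, 15.3, 15.2 and 12.8 CPM in the AL libraries and at 68.3, 54, 57.7, 50.2 and 37.6 CPM in the EOD libraries. EOD replicate 5 was the lowest EOD library and still lay well above AL, and Slc22a5 rose 3.43-fold (log2 difference 1.78 ± 0.15 SE, adjusted p = 3.59e-07). Over the whole list EOD replicate 5 was also the EOD library nearest to AL, and without it 24 genes were higher with a median of 0.80. Medium-chain acyl-CoA dehydrogenase, Acadm, rose by 1.05, the trifunctional protein subunits Hadhb and Hadha by 1.26 and 0.79, and the electron acceptor Etfdh by 1.13 on the log2 scale. The increase was small at the gate of the pathway. Cpt1a, the carnitine palmitoyltransferase that malonyl-CoA inhibits, was at 246, 218, 219, 231 and 190.3 CPM in the AL libraries and at 302, 308, 252.2, 260.5 and 271 CPM in the EOD libraries. The groups did not overlap, but the increase was 1.26-fold (log2 difference 0.34 ± 0.11 SE, adjusted p = 0.0216), and adjusted p was 0.0543 without AL replicate 5, 0.0524 without EOD replicate 1 and 0.0586 without EOD replicate 2. Leaving out AL replicates 4 and 5 together also lost the call of Cpt1a (adjusted p = 0.0684).

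Genes long known as PPARA targets rose by more, 15 of 17 tested with none lower and a median log2 difference of 1.39. Ppara itself rose from 25 ± 4.82 CPM in AL to 47.1 ± 3.29 CPM in EOD (mean ± SD, n = 5 each) (adjusted p = 1.93e-05). Cyp4a10, a fatty acid omega-hydroxylase, was at 252.1, 202, 198, 54.4 and 16.7 CPM in the AL libraries and at 2819, 2009, 1942, 1769 and 2210.5 CPM in the EOD libraries. AL replicates 4 and 5 were the lowest of AL, and every EOD library was far above the highest AL library. Its relative Cyp4a14 spread still further in AL, where it was at 245, 159, 136, 9.44 and 2.3 CPM, and rose by 5.04 ± 1.02 on the log2 scale (adjusted p = 0.00232). Without AL replicates 4 and 5 the log2 difference was 3.33 for Cyp4a10 and 4.37 for Cyp4a14. Cyp4a31 rose by 3.9 (adjusted p = 2.73e-07). Cyp4a genes are close paralogs, so reads may have been divided among them.

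Acot1, the cytosolic thioesterase that frees fatty acids from CoA, was at 16.1, 7.98, 14.8, 7.78 and 5.6 CPM in the AL libraries and at 262, 210.2, 183, 158 and 108 CPM in the EOD libraries, a 17.6-fold increase with no overlap (log2 difference 4.14 ± 0.35 SE, adjusted p = 1.84e-06). Pdk4, the kinase that shuts pyruvate dehydrogenase, was at 4.75, 4.21, 2.06, 0.899 and 1.25 CPM in the AL libraries and at 35.3, 17.9, 20.9, 8.98 and 9.56 CPM in the EOD libraries. EOD replicates 4 and 5 were lowest among EOD, and Pdk4 rose 6.99-fold (log2 difference 2.81 ± 0.47 SE, adjusted p = 0.000548). The small GTPase Rab30 rose 6.24-fold, from 4.35 ± 0.542 CPM in AL to 27.1 ± 10.3 CPM in EOD. Vnn1, a pantetheinase, rose 2.44-fold (adjusted p = 0.00766), and Angptl4, the lipoprotein lipase inhibitor, rose by 1.39 on the log2 scale (adjusted p = 0.000692). Fgf21, the fasting hormone of the liver, was at 5.04, 2.35, 1.44, 0.518 and 0.574 CPM in the AL libraries and at 8.79, 15.7, 7.61, 11.5 and 8.87 CPM in the EOD libraries. It was higher in every EOD library (log2 difference 2.38 ± 0.56 SE, adjusted p = 0.00523), with AL replicate 1 nearest to the EOD libraries. The coactivator Ppargc1a was not called (log2 difference 0.18, adjusted p = 0.497). The PPAR response element, as 2 direct AGGTCA copies with 1 base between, was in 0.04% of all promoters and in none of the 8 PPARA target promoters of the table, which says only that these exact letters are not in the windows.

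Peroxisomal oxidation genes were mixed, 8 higher and 3 lower of 20. The bifunctional enzyme Ehhadh was at 216, 148, 164, 113 and 98 CPM in the AL libraries and at 1054, 709, 619.6, 680.0 and 397 CPM in the EOD libraries and rose 4.69-fold (log2 difference 2.23 ± 0.26 SE, adjusted p = 1.49e-05). Crot, which passes peroxisomal products to carnitine, rose by 1.64 and the thioesterase Acot8 by 1.23 on the log2 scale. Acox3 fell by 0.57. The ketone list held 5 higher and 1 lower genes of 9. The exporter Slc16a1 (Mct1) rose by 1.8. Bdh2 was the member that fell (log2 difference -0.89 ± 0.12 SE, adjusted p = 5.55e-05).

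Of the lipid droplet genes 7 rose and 4 fell of 17. Plin5, which tethers droplets to mitochondria, was at 26, 22.9, 36, 20.8 and 29.4 CPM in the AL libraries and at 132, 89.6, 86.2, 133 and 139.9 CPM in the EOD libraries and rose 4.29-fold (log2 difference 2.1 ± 0.22 SE, adjusted p = 4.26e-06). Fitm1, a droplet-forming membrane protein, fell by 1.17. Among genes of fatty acid uptake and activation, the transporter Slc27a1 rose by 1.67 and Acsl1 by 1.0, while Acsl3 fell by 1.41 and the binding proteins Fabp1 and Fabp5 had log2 differences of -0.83 and -2.93. That of Fabp5 was -1.23 without AL replicates 4 and 5 (adjusted p = 0.0419).

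Genes of sugar entry and glycolysis were more often lower than higher, with 11 of 25 tested down and 2 up. Dak, the triokinase of fructose breakdown, was at 729.5, 821, 749, 559 and 589 CPM in the AL libraries and at 137, 145, 123, 142 and 168 CPM in the EOD libraries, a 4.82-fold decrease (log2 difference -2.27 ± 0.13 SE, adjusted p = 8.43e-09). It was among the genes with the smallest p of the whole comparison. Pklr, liver pyruvate kinase, was at 267, 182, 197, 131 and 104 CPM in the AL libraries and at 23.5, 29.8, 24.2, 26.1 and 16.7 CPM in the EOD libraries and fell 7.33-fold (log2 difference -2.87 ± 0.33 SE, adjusted p = 2.14e-05). The groups were apart for both genes, and for both the IF16 mean was near that of AL, at 651 CPM for Dak and 186 CPM for Pklr. The glucose transporter Slc2a2 fell by 1.0 and the fructose transporter Slc2a5 fell by 1.43. Lactate dehydrogenase, Ldha, rose by 0.77 (adjusted p = 0.00351).

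Of 18 glycogen genes 7 were lower and 2 higher. Both ends of the pathway fell: Gys2, liver glycogen synthase, was at 179, 231, 245, 248 and 185 CPM in the AL libraries and at 62.6, 109, 94.1, 109.5 and 111 CPM in the EOD libraries (log2 difference -1.16 ± 0.18 SE, adjusted p = 0.000145), and Pygl, liver glycogen phosphorylase, averaged 310.2 ± 57.3 CPM in AL and 175 ± 26.3 CPM in EOD (log2 difference -0.82 ± 0.14 SE, adjusted p = 0.000233). Ppp1r3c, which targets protein phosphatase 1 to glycogen, rose by 1.74 (adjusted p = 0.0142). Gluconeogenic enzymes were by contrast rarely called, 2 higher and 1 lower of 16. Pck1, the cytosolic phosphoenolpyruvate carboxykinase, was at 2232, 2748, 3293, 3407 and 4108 CPM in the AL libraries and at 2735, 3062, 2838, 3222 and 4292 CPM in the EOD libraries. The groups overlapped fully (log2 difference 0.03 ± 0.15 SE, adjusted p = 0.89), and the same was true of glucose-6-phosphatase, G6pc (log2 difference 0.26 ± 0.34 SE, adjusted p = 0.576). Gyk, glycerol kinase, by which fat-derived glycerol enters the pathway, was at 83.6, 76, 73.2, 73 and 67.5 CPM in the AL libraries and at 148, 255, 220.4, 209 and 151 CPM in the EOD libraries and rose 2.63-fold without overlap (log2 difference 1.4 ± 0.17 SE, adjusted p = 1.86e-05). The cAMP response element TGACGTCA was in none of 13 gluconeogenic promoters, in 1.77% of all and in 2.97% of those of tested genes. At so low a share 13 promoters are too few to show a lack, and only these exact letters were searched. At the pyruvate dehydrogenase gate the carrier subunit Mpc2 rose by 1.1 beside Pdk4, and Txnip, which restrains glucose uptake, rose by 1.24 (adjusted p = 0.0103, and 0.0515 without AL replicates 4 and 5).

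The circadian clock differed between the groups in 16 of 26 tested genes, 6 higher and 10 lower. The activators were higher: Arntl was at 1.12, 1.07, 1.04, 0.415 and 0.743 CPM in the AL libraries and at 17.3, 12, 8.82, 6.53 and 6.9 CPM in the EOD libraries, and Clock was at 9.36, 6.18, 8.85, 7.98 and 8.47 CPM in the AL libraries and at 28.3, 26.6, 21.6, 19 and 23.1 CPM in the EOD libraries. The groups were apart for both genes, and Arntl rose 11.7-fold (log2 difference 3.55 ± 0.47 SE, adjusted p = 7.03e-05) and Clock 2.9-fold (log2 difference 1.54 ± 0.17 SE, adjusted p = 5.52e-06). Their paralog Npas2 rose by 1.49 (adjusted p = 0.0201, and 0.0651 without EOD replicate 2), but EOD replicate 3 was below all AL libraries. Leaving out AL replicates 4 and 5 also lost the call of Npas2 (adjusted p = 0.0618).

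Of the repressors, Per2 was at 33.6, 59.3, 53.9, 45.1 and 47.8 CPM in the AL libraries and at 9.41, 8.79, 18.2, 16.8 and 21.8 CPM in the EOD libraries and fell 3.2-fold (log2 difference -1.68 ± 0.25 SE, adjusted p = 0.000153). Per3 fell 5.55-fold, from 30.3 ± 12.9 CPM in AL to 5.49 ± 2.24 CPM in EOD (mean ± SD, n = 5 each). Per1 overlapped between the groups and was not called (log2 difference -0.47, adjusted p = 0.199). Cry1 went the other way: it was at 5.64, 5.28, 6.3, 6.46 and 7.8 CPM in the AL libraries and at 20.4, 11.9, 19, 11.2 and 9.84 CPM in the EOD libraries, a 2.3-fold increase (log2 difference 1.2 ± 0.18 SE, adjusted p = 0.000114). Cry2 fell by 0.71. The output factor Dbp was at 90.2, 100.3, 85.4, 76.3 and 81.5 CPM in the AL libraries and at 3.33, 8.65, 16, 16.2 and 14.3 CPM in the EOD libraries, a 7.44-fold decrease (log2 difference -2.9 ± 0.51 SE, adjusted p = 0.000832), while Nfil3, which competes for the same sites, rose by 1.44 (adjusted p = 0.00099). The REV-ERB gene Nr1d1 was not called (log2 difference -0.59, adjusted p = 0.173). Since the labels do not give the clock time of sampling, a shift of phase and a change of level cannot be told apart.

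Among the clock-controlled repressors, Bhlhe41 (Dec2) was at 8.73, 7.77, 7.25, 4.8 and 4.96 CPM in the AL libraries and at 0.936, 1.27, 0.889, 0.895 and 1.25 CPM in the EOD libraries and fell 6.37-fold (log2 difference -2.67 ± 0.33 SE, adjusted p = 1.83e-05). Ciart (Chrono) was at 17.8, 30.9, 28.3, 12.9 and 19.5 CPM in the AL libraries and at 0.858, 0.551, 2.84, 5.4 and 11.5 CPM in the EOD libraries. It was under 1 CPM in EOD replicates 1 and 2 and highest among EOD libraries in replicate 5, which was still below AL (log2 difference -2.38 ± 0.66 SE, adjusted p = 0.0138). Without that library the log2 difference of Ciart was -3.18. The promoter of Ciart, at chr3:95882229-95882378, minus strand, is shown because it holds 3 copies of the E-box CACGTG, the site of Clock and Arntl, marked in capitals.
Ciart: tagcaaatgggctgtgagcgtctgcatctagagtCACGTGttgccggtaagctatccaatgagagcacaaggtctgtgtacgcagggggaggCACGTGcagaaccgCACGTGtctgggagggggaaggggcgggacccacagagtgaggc
CACGTG was in 5 of 19 clock genes with a promoter (26.32%), namely Per1, Cry1, Tef, Bhlhe41 and Ciart, and in 6.86% of all genes. The share was 9.76% among tested genes with a promoter, 10.84% among genes called higher and 10.04% among genes called lower. Of the 5 clock genes Cry1 rose, Tef, Bhlhe41 and Ciart fell, and Per1 was not called.

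**Figure D3:**
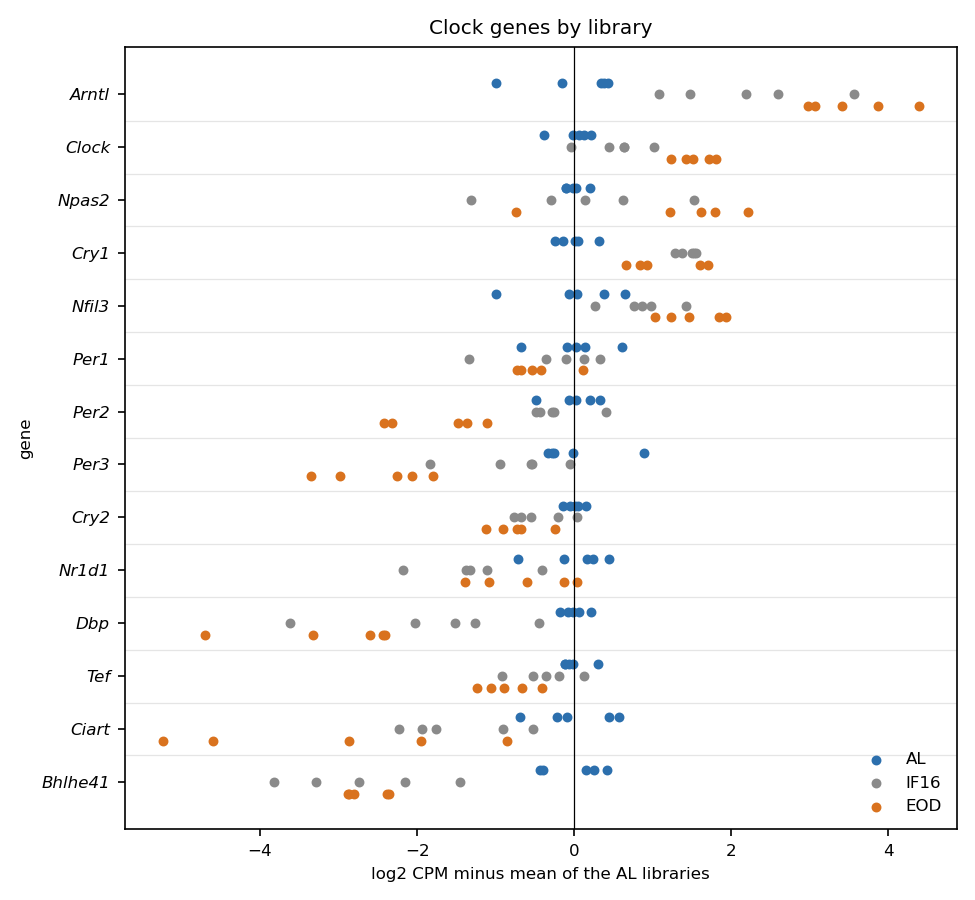
Each panel row is a clock gene and each point one library, with the log2 CPM minus the mean of the AL libraries on the x axis and the groups AL, IF16 and EOD in blue, grey and orange. Arntl and Clock lie to the right in EOD, Per2, Per3 and Dbp to the left, and for Cry1 and Bhlhe41 the IF16 and EOD points overlap.

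Signals between liver and body changed in a few genes. Igfbp2, an IGF-binding protein, was at 229, 336, 383, 392 and 342 CPM in the AL libraries and at 1246, 1339, 1394, 1405 and 931 CPM in the EOD libraries and rose 3.75-fold (log2 difference 1.91 ± 0.16 SE, adjusted p = 2.74e-07). Lepr, the leptin receptor gene, was at 0.973, 1.48, 1.63, 1.83 and 1.42 CPM in the AL libraries and at 8.92, 10.6, 12.5, 10 and 3.57 CPM in the EOD libraries, a 6.22-fold increase (log2 difference 2.64 ± 0.34 SE, adjusted p = 4.23e-05) in which EOD replicate 5 was the lowest EOD library. Igf1 overlapped and fell by 0.36 (adjusted p = 0.0233, and 0.075 without EOD replicate 3 or 0.0575 without AL replicate 5). Its adjusted p was 0.0835 without AL replicates 4 and 5. Igfbp1, an insulin-repressed IGF-binding protein, was at 6.61, 31.9, 7.96, 93.1 and 16 CPM in the AL libraries and at 111, 66.2, 94.4, 53.8 and 45.2 CPM in the EOD libraries. It was not called with all libraries (log2 difference 1.25, adjusted p = 0.139), and without AL replicate 4, its highest AL library, it was higher by 2.25 (adjusted p = 0.00332). Among secreted factors, selenoprotein P, Sepp1, rose by 1.08 and the retinol carrier Rbp4 by 0.73, while Lect2 fell by 0.88 on the log2 scale. Of 19 glucocorticoid-responsive genes 3 rose and 2 fell. Within AL, replicates 4 and 5 had the highest mean level over this list, and without them 6 were higher and 1 lower. Sgk1, a kinase, rose 2.44-fold, from 13.5 ± 2.91 CPM in AL to 32.9 ± 6.58 CPM in EOD. Klf9 was at 19.8, 11.2, 11, 28.2 and 13.6 CPM in the AL libraries and at 102, 46.4, 62.2, 31.9 and 37 CPM in the EOD libraries and rose 3.33-fold (log2 difference 1.74 ± 0.32 SE, adjusted p = 0.000888), with AL replicate 4 close to the lowest EOD library.

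Of 21 tested p53 and growth arrest genes, 6 were higher and 2 lower, with a median log2 difference of 0.003. That is 38.1% called, against 35.2% of all tested genes. Single members nevertheless differed strongly. Cdkn1a (p21) was at 2.09, 2.35, 3.39, 2.8 and 1.49 CPM in the AL libraries and at 40.7, 11.1, 15.6, 16.9 and 24.9 CPM in the EOD libraries and rose 9.02-fold (log2 difference 3.17 ± 0.63 SE, adjusted p = 0.00179). Gadd45b was at 0.973, 1.73, 1.57, 4.08 and 1.96 CPM in the AL libraries and at 28.6, 24.9, 9.17, 10 and 15.9 CPM in the EOD libraries and Gadd45a was at 11.6, 8.08, 2.06, 9.4 and 5.94 CPM in the AL libraries and at 1.07, 1.76, 1.03, 0.829 and 1.25 CPM in the EOD libraries. The paralogs went opposite ways without overlap, Gadd45b up 8.65-fold (log2 difference 3.11 ± 0.42 SE, adjusted p = 8.68e-05) and Gadd45a down 6.19-fold (log2 difference -2.63 ± 0.38 SE, adjusted p = 9.57e-05). Of 27 tested cell cycle genes 9 fell and 3 rose. The ribonucleotide reductase subunits Rrm2 and Rrm1 fell, with log2 differences of -1.21 and -0.63, and the replication helicase subunit Mcm2 fell by 1.12, while E2f8, an inhibitory E2F factor, rose 4.67-fold from 2.05 ± 0.705 CPM in AL to 9.59 ± 3.56 CPM in EOD.

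Amino acid handling changed in selected steps. Slc38a3, the glutamine transporter of liver, was at 1816, 2088, 1777, 1538 and 1534 CPM in the AL libraries and at 551, 581, 606, 576 and 689.6 CPM in the EOD libraries, a 2.91-fold decrease (log2 difference -1.54 ± 0.15 SE, adjusted p = 2.47e-06). Tdo2, which opens tryptophan breakdown, rose 1.91-fold, from 826 ± 186 CPM in AL to 1581 ± 184 CPM in EOD, and Haao, later in the same route, fell by 0.64. Of 42 amino acid catabolism genes 9 rose and 9 fell, and of 19 urea cycle and transport genes 3 rose and 3 fell. Cps1 of the urea cycle was not called (log2 difference 0.48, adjusted p = 0.0669), but was higher by 0.79 without AL replicates 4 and 5 (adjusted p = 0.00798) and by 0.64 without AL replicate 4 alone (adjusted p = 0.0162). Methionine and one-carbon cycle genes went both ways, 11 of 27 higher and 6 lower, with a median log2 difference of 0.051. Mat1a, which makes S-adenosylmethionine, was at 2160.2, 2388, 1859.9, 1669 and 1913 CPM in the AL libraries and at 4208, 3361, 3444, 3239.8 and 3900.2 CPM in the EOD libraries and rose 1.82-fold (log2 difference 0.86 ± 0.12 SE, adjusted p = 4.29e-05). Gnmt, which uses it to methylate glycine, rose by 1.37 and Ahcy by 0.91 on the log2 scale. Gamt, which spends methyl groups on creatine, was at 384, 525, 444, 337 and 358 CPM in the AL libraries and at 100.02, 125, 147, 165 and 144 CPM in the EOD libraries, a 3.01-fold decrease (log2 difference -1.59 ± 0.14 SE, adjusted p = 5.99e-07). Qprt, which makes an NAD precursor from a tryptophan product, fell by 1.06, and of the NAD metabolism list 7 of 16 genes fell against 3 higher. The desuccinylase Sirt5 fell 2.43-fold, from 15.5 ± 2.47 CPM in AL to 6.35 ± 0.217 CPM in EOD.

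In bile acid synthesis 7 of 17 genes rose and 4 fell. Cyp7a1, the rate-limiting enzyme of the classical route, was at 45.4, 41.2, 72.4, 46.8 and 40.7 CPM in the AL libraries and at 18.1, 20, 15.4, 24.7 and 15.7 CPM in the EOD libraries and fell 2.63-fold (log2 difference -1.39 ± 0.27 SE, adjusted p = 0.00113). Cyp8b1, which directs products to cholic acid, was at 298, 323, 313, 199 and 121 CPM in the AL libraries and at 509, 525, 499, 367 and 323 CPM in the EOD libraries. It rose 1.77-fold (log2 difference 0.83 ± 0.24 SE, adjusted p = 0.0137), with AL replicate 5 the lowest and AL replicate 2 level with EOD replicate 5. Cyp39a1, an oxysterol hydroxylase, rose 2.86-fold from 5.57 ± 2.11 CPM in AL to 15.9 ± 3.24 CPM in EOD. Slc22a7, an organic anion transporter, fell by 1.64, and the phospholipid exporter Abcb4 rose by 0.91.

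Cytochrome P450 and other phase I genes went both ways, 14 higher and 8 lower of 39. Cyp3a11, a broad drug and bile acid hydroxylase, was at 2596, 2242, 2512, 2233 and 2668 CPM in the AL libraries and at 8823, 6849.7, 8413, 8378 and 6216 CPM in the EOD libraries and rose 3.16-fold (log2 difference 1.66 ± 0.16 SE, adjusted p = 1.35e-06). Cyp1a2, which metabolises caffeine and aromatic amines, was at 614, 654, 844, 965 and 758 CPM in the AL libraries and at 349, 296, 389, 324 and 402 CPM in the EOD libraries and fell 2.18-fold (log2 difference -1.12 ± 0.13 SE, adjusted p = 6.48e-06). Cyp2e1 rose by 0.91 on the log2 scale. Of 45 phase II genes 13 rose and 13 fell, and without AL replicates 4 and 5, 7 were higher and 11 lower. The glutathione transferase Gstm3 was at 56.3, 49.8, 53.1, 35.3 and 44.9 CPM in the AL libraries and at 6.03, 7.16, 4.51, 5.44 and 7.77 CPM in the EOD libraries, a 7.73-fold decrease (log2 difference -2.95 ± 0.17 SE, adjusted p = 8.43e-09), and its relative Gstm6 fell by 1.25. The bilirubin transferase Ugt1a1 rose by 1.16 (adjusted p = 0.00685). Gstm and Cyp3a genes have near-identical copies, and reads may have been divided among them. Retsat, retinol saturase, rose 5.12-fold from 245 ± 88.2 CPM in AL to 1256 ± 262 CPM in EOD, and Rdh11, a retinal reductase, fell 3.79-fold from 57.1 ± 6.85 CPM in AL to 15.1 ± 2.07 CPM in EOD. The antioxidant enzyme Gpx1 rose by 1.07.

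Cytosolic ribosomal protein genes rose almost as a block, 74 of 79 tested with none lower, at a median log2 difference of 0.61. Rpl9 was at 165, 127, 179, 176 and 183 CPM in the AL libraries and at 498, 489.8, 708, 568 and 233 CPM in the EOD libraries, and Rps27 was at 233, 261, 295, 305 and 315 CPM in the AL libraries and at 519, 590.2, 652, 765 and 442 CPM in the EOD libraries. All EOD libraries were above all AL libraries for both genes, EOD replicate 5 was the EOD library nearest to AL, and the increases were 3.0-fold (log2 difference 1.59 ± 0.21 SE, adjusted p = 4.38e-05) and 2.11-fold (log2 difference 1.07 ± 0.14 SE, adjusted p = 2.47e-05). Without EOD replicate 5, 75 members were higher with a median of 0.73, and without AL replicates 4 and 5, 73 with a median of 0.74. Elongation factor Eef1a1 was at 3191, 2453, 3273, 3521 and 3514 CPM in the AL libraries and at 6902, 6495, 8406, 6372 and 4250.4 CPM in the EOD libraries, a 2.03-fold increase (log2 difference 1.02 ± 0.15 SE, adjusted p = 7.47e-05). Eef2k, the kinase that blocks elongation, fell 2.66-fold, from 7.77 ± 0.677 CPM in AL to 2.91 ± 0.519 CPM in EOD. The snoRNA host transcripts Snhg1, Snhg6 and Gas5, which belong to the same terminal oligopyrimidine class as ribosomal protein messages, rose by 1.21, 1.3 and 0.52 on the log2 scale.

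Transcripts of the mitochondrial genome fell, 11 of 12 tested with none higher and a median log2 difference of -0.81, while nuclear-encoded respiratory chain genes were higher in 25 of 77 and lower in 4 (without EOD replicate 5, 37 and 2). mt-Co2, a cytochrome oxidase subunit, was at 407, 479, 400.2, 325 and 342 CPM in the AL libraries and at 161, 164, 178, 185 and 249.9 CPM in the EOD libraries and fell 2.08-fold (log2 difference -1.06 ± 0.15 SE, adjusted p = 5.33e-05). mt-Nd6, the only light-strand protein gene, where reads of the opposite strand may also be counted, was at 2566, 3604, 2967, 2594 and 2196 CPM in the AL libraries and at 991, 997, 659.9, 899.8 and 1944 CPM in the EOD libraries. EOD replicate 5 was well above the other EOD libraries for mt-Nd6 but below every AL library, and the decrease was 2.54-fold (log2 difference -1.34 ± 0.22 SE, adjusted p = 0.000264). Without EOD replicate 5 the median of the 12 genes was -1.01. Summed, these transcripts took 11.5 ± 2.16% of counts in AL and 6.89 ± 1.87% in EOD, an exact two-sided permutation p of 0.0238, where 5 against 5 libraries allow no p below 0.00794. Libraries were made from poly(A)-selected RNA with RNA integrity numbers from 6.8 upward, and the part of RNA quality in the mitochondrial share was not tested. Ndufb8 of complex I rose by 1.17 and Uqcrh of complex III by 0.84.

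**Figure D4:**
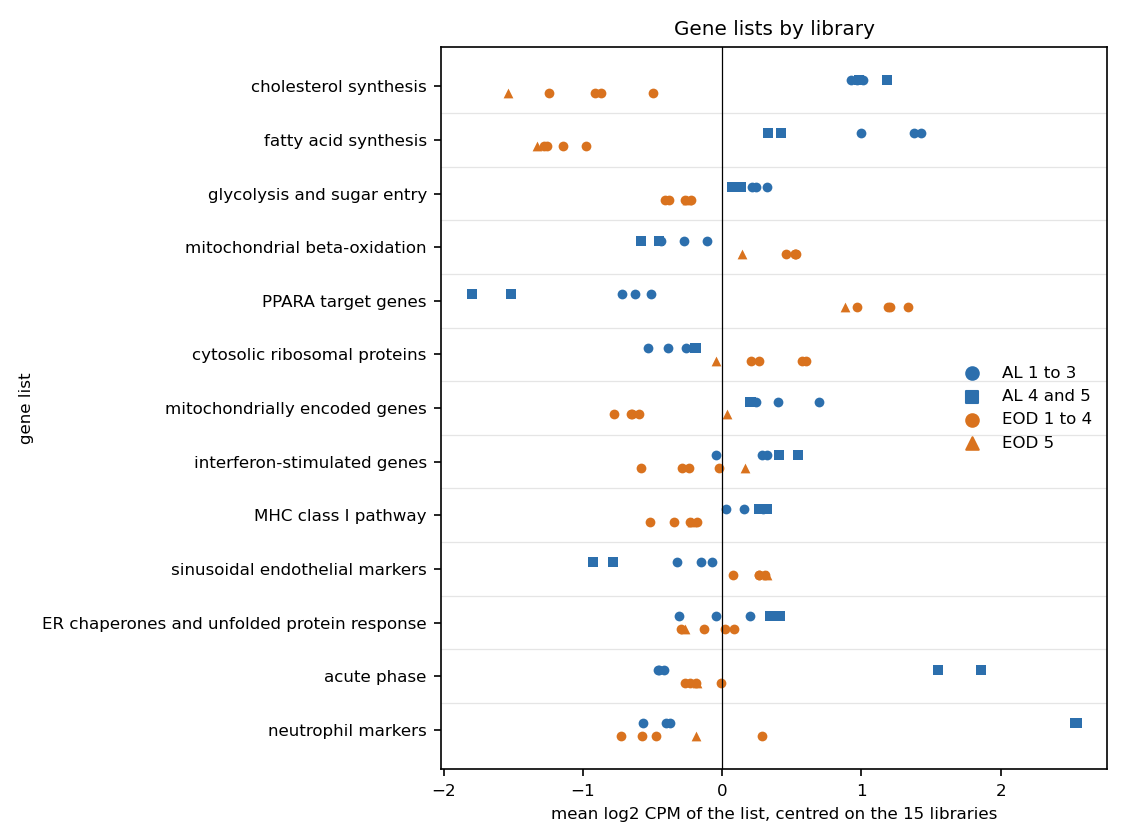
Each point is one library's mean log2 CPM over the tested members of a gene list, centred on the mean of the 15 libraries. AL is blue, EOD orange, AL replicates 4 and 5 are drawn as squares and EOD replicate 5 as a triangle. Sterol, lipogenic and oxidation lists separate AL from EOD, the acute phase and neutrophil lists are high in AL replicates 4 and 5, and EOD replicate 5 is the EOD library closest to AL for ribosomal proteins.

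Autophagy, lysosome and chaperone genes leaned upward. Gabarapl1, an autophagosome membrane protein, was at 232, 156, 251, 251 and 223 CPM in the AL libraries and at 683, 717, 713, 545 and 474 CPM in the EOD libraries, a 2.82-fold increase with wide separation (log2 difference 1.49 ± 0.14 SE, adjusted p = 1.84e-06). Its relatives Map1lc3b and Map1lc3a rose by 0.95 and 0.84, whereas the initiating kinase Ulk1 fell by 0.69 on the log2 scale. In total 16 of 42 autophagy genes rose and 7 fell, and 17 of 42 lysosomal genes rose and 2 fell, among the latter the proton pump subunit Atp6v0a1 (log2 difference -1.12 ± 0.12 SE, adjusted p = 4.23e-06). The lysosomal protease Ctsh rose by 1.17 and Ctsc by 1.18. Cytosolic chaperones rose in 17 of 29, such as Cct4 of the chaperonin (0.92) and Hspa8 (0.83), with 2 lower. More of the endoplasmic reticulum chaperones were lower than higher, 9 of 33 against 1, with a median log2 difference of -0.21. That is 30.3% called, against 35.2% of all tested genes. Calr, calreticulin, was at 842, 695, 895, 1069.8 and 1216 CPM in the AL libraries and at 495, 612, 424, 453 and 525 CPM in the EOD libraries and fell 1.88-fold (log2 difference -0.91 ± 0.14 SE, adjusted p = 0.000156), with AL replicates 4 and 5 highest. Without those 2 libraries 4 of the endoplasmic reticulum genes were lower and 3 higher, with a median of -0.019. The log2 difference of Calr was then -0.66 (adjusted p = 0.00198). The translocon genes Ssr1 and Sec61a1 fell, with log2 differences of -0.78 and -0.62 with all libraries and of -0.67 and -0.50 without the 2.

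Interferon-stimulated genes were lower in EOD, 22 of 45 tested against 1 higher, with a median log2 difference of -0.48. Isg15, a ubiquitin-like modifier, was at 14.9, 15.9, 12.8, 16 and 16.2 CPM in the AL libraries and at 4.16, 9.37, 7.64, 9.98 and 7.8 CPM in the EOD libraries and fell 1.95-fold (log2 difference -0.96 ± 0.17 SE, adjusted p = 0.000501). Gbp7, an interferon-inducible GTPase, was at 12, 13.7, 8.88, 11.9 and 11.7 CPM in the AL libraries and at 3.2, 4.27, 4.27, 5.24 and 6.27 CPM in the EOD libraries and fell 2.51-fold (log2 difference -1.33 ± 0.19 SE, adjusted p = 6.09e-05). Neither gene overlapped between the groups, and AL replicates 4 and 5 were level with the other AL libraries for both. The RNA sensors Ddx58 (RIG-I), Ifih1 and Dhx58 fell, with log2 differences of -0.91, -0.84 and -1.27. Rsad2 (viperin) was the exception, at 3.69, 2.52, 3.36, 3.46 and 2.63 CPM in the AL libraries and at 4.94, 6.25, 5.86, 4.24 and 5.83 CPM in the EOD libraries, and rose 1.73-fold (log2 difference 0.79 ± 0.19 SE, adjusted p = 0.00407). Without AL replicates 4 and 5, 16 members were lower and 2 higher. Averaged over the list, EOD replicates 4 and 5 lay within the AL range.

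Genes of the MHC class I pathway fell with them, 10 of 16 tested with none higher. Psmb9, an immunoproteasome subunit, was at 34.5, 34.4, 29.3, 30.2 and 34.9 CPM in the AL libraries and at 9.28, 12.1, 14.6, 15.1 and 11.2 CPM in the EOD libraries, and Tap2, the peptide transporter, was at 16.8, 20.3, 15.1, 19 and 17 CPM in the AL libraries and at 5.41, 7.08, 6.47, 7.76 and 9.65 CPM in the EOD libraries. Both were apart between groups, at 2.62-fold (log2 difference -1.39 ± 0.15 SE, adjusted p = 5.1e-06) and 2.43-fold (log2 difference -1.28 ± 0.13 SE, adjusted p = 3.13e-06) lower. The other immunoproteasome subunits Psmb8 and Psmb10 fell, with log2 differences of -0.81 and -0.90, and the class I gene H2-K1 fell by 0.29 (adjusted p = 0.0183, and 0.0529 without AL replicate 4). Adjusted p of H2-K1 was 0.199 without AL replicates 4 and 5. None of the 8 MHC class II genes was called, and Cd74 had a log2 difference of -0.15 (adjusted p = 0.714). Promoters of Isg15 (chr4:156200819-156200968, minus strand) and Gbp7 (chr3:142530186-142530335, plus strand) are shown for the interferon response element, searched as TTTC, any 2 bases and TTTC again (GAAA and GAAA on the other strand), in capitals.
Isg15: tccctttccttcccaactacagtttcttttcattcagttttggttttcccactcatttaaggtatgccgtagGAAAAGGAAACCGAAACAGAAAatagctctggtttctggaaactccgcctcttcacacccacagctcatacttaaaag
Gbp7: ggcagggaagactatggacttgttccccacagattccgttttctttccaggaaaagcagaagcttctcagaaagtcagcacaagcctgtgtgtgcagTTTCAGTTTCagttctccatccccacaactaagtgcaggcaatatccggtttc
This element was in 17 of 32 interferon-stimulated genes with a promoter (53.12%), in 2 of 14 class I genes and in 3.46% of all genes. Among genes called lower the share was 3.51%.

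The acute phase list fell in 10 of 31 and rose in 2, but the larger differences rested on 2 AL libraries. Saa2, a serum amyloid, was at 24.4, 23.1, 19.2, 2410.5 and 7025 CPM in the AL libraries and at 7.51, 12.1, 17.7, 11.7 and 14.5 CPM in the EOD libraries, and Lcn2, lipocalin 2, was at 4.44, 4.14, 4.99, 214 and 464 CPM in the AL libraries and at 1.61, 3.31, 1.56, 4.18 and 6.46 CPM in the EOD libraries. AL replicates 4 and 5 were high and AL replicates 1 to 3 were close to EOD. Saa2 had the largest fitted decrease of the comparison (log2 difference -7.23 ± 1.71 SE, adjusted p = 0.00631), and without AL replicates 4 and 5 its log2 difference was -0.78 (adjusted p = 0.158) and that of Lcn2 was -0.38 (adjusted p = 0.446). Orm2, an acid glycoprotein, followed the same libraries, at 13.3, 14.6, 13.6, 289 and 603 CPM in the AL libraries and at 12.2, 8.02, 12.6, 16.2 and 9.87 CPM in the EOD libraries, and went from -3.99 with all libraries to -0.21 without the 2 (adjusted p = 0.529). Without them 1 member of the list was lower and 11 were higher. Saa genes are close copies of each other.

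Serpina3m, an antiprotease of the list, rose without overlap: it was at 101, 74.9, 104, 144 and 102 CPM in the AL libraries and at 198, 203, 254, 185 and 186 CPM in the EOD libraries (log2 difference 0.96 ± 0.14 SE, adjusted p = 7.76e-05). Neutrophil markers had the same libraries at the top. S100a8 was at 0.544, 0.725, 1.04, 12.3 and 9.96 CPM in the AL libraries and at 0.52, 0.661, 0.675, 1.69 and 0.846 CPM in the EOD libraries, and 3 of the 4 tested markers were lower with all libraries and none without AL replicates 4 and 5. The S100a8 call was also lost without AL replicate 4 (adjusted p = 0.0698) or AL replicate 5 (adjusted p = 0.0624), while the defining marker Ly6g had 2 counts over all libraries. The part of these libraries in the differences of other genes was not tested beyond leaving them out.

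Endothelial genes of the liver sinusoid rose, 14 of 19 with none lower and a median log2 difference of 0.72. Clec4g, a sinusoidal lectin, was at 32.8, 32.5, 28, 20.8 and 20.2 CPM in the AL libraries and at 45.4, 52.4, 53.2, 62.6 and 51.9 CPM in the EOD libraries, and Lyve1, a hyaluronan receptor, was at 3.18, 4.35, 2.9, 3.53 and 2.06 CPM in the AL libraries and at 6.11, 7.6, 8.67, 11.4 and 9.37 CPM in the EOD libraries. Both were separated, at 1.98-fold (log2 difference 0.98 ± 0.13 SE, adjusted p = 4.31e-05) and 2.69-fold (log2 difference 1.43 ± 0.20 SE, adjusted p = 5.89e-05) higher. Mrc1 rose by 1.11, Oit3 by 1.04 and Bmp2, the endothelial ligand that controls hepcidin, by 1.01. Stab2, a scavenger receptor of the same cells, was not called (log2 difference 0.40 ± 0.16 SE, adjusted p = 0.0533), except without AL replicate 2 (adjusted p = 0.00326) or EOD replicate 3 (adjusted p = 0.038). Without AL replicates 4 and 5, 11 members were higher, 1 was lower and the median was 0.45. In whole liver, a larger share of a cell type and more RNA per cell of that type cannot be told apart.

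Markers of other cell types were also counted. Of 9 tested B and plasma cell markers 2 were lower with all libraries and 5 without AL replicates 4 and 5, with none higher. Of 15 Kupffer cell and macrophage markers 1, Emr1, rose (log2 difference 1.17 ± 0.42 SE, adjusted p = 0.0425), with 6 of the 10 fits that left out 1 AL or EOD library losing the call, and Clec4f was not called (adjusted p = 0.289). Of 16 stellate cell and fibroblast markers 5 rose, such as Dcn (0.88) and Colec11 (0.73), and 2 fell, Col1a1 (-0.96) and Tagln (-0.89). Leaving out AL replicates 4 and 5 gave 5 higher and 5 lower. Col15a1, a basement membrane collagen, was at 4.92, 4.7, 3.79, 6.53 and 8.47 CPM in the AL libraries and at 0.286, 0.992, 0.995, 0.365 and 0.47 CPM in the EOD libraries and fell 9.15-fold (log2 difference -3.19 ± 0.35 SE, adjusted p = 6.42e-06). Adipsin, Cfd, an adipocyte marker, was at 8.64, 7.49, 7.31, 0.795 and 0.979 CPM in the AL libraries and at 0.676, 0.386, 1.03, 0.331 and 0.752 CPM in the EOD libraries. It was high in AL replicates 1 to 3 alone and called lower (log2 difference -3.0 ± 0.63 SE, adjusted p = 0.00232, and -3.6 without AL replicates 4 and 5), while Adipoq had 72 counts over all libraries.

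Several of the largest differences fell outside these groups. Hcn3, a pacemaker channel gene, was at 56.2, 88.6, 57.4, 32 and 23.4 CPM in the AL libraries and at 2.11, 2.37, 1.21, 4.21 and 2.13 CPM in the EOD libraries and fell 21.4-fold (log2 difference -4.42 ± 0.42 SE, adjusted p = 6.31e-06). Chrna4, a nicotinic receptor subunit gene, was at 6.07, 21.4, 5.16, 7.71 and 7.39 CPM in the AL libraries and at 0.13, 0.441, 0.391, 0.365 and 0.251 CPM in the EOD libraries and fell (log2 difference -4.92 ± 0.59 SE, adjusted p = 3.56e-05). Its EOD libraries lay near the floor, so no fold is given. AL and EOD did not overlap for Hcn3 or Chrna4, and AL replicate 2 was the highest library for both. Slc23a1, the vitamin C transporter, was at 61.7, 54.9, 49.8, 41.8 and 44.8 CPM in the AL libraries and at 8.92, 11.7, 10.1, 9.51 and 11.9 CPM in the EOD libraries, a 4.85-fold decrease (log2 difference -2.28 ± 0.15 SE, adjusted p = 1.94e-08), and Tmem86b, the liver lysoplasmalogenase, fell 2.87-fold from 98.2 ± 10 CPM in AL to 34.2 ± 3.26 CPM in EOD (adjusted p = 1.68e-08).

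For 6 other genes the lower group lay at or near the floor of 3 counts, and no fold is given. Cyp21a1, a steroid hydroxylase gene of the adrenal, was at 0.544, 2.69, 1.14, 7.19 and 5.74 CPM in the AL libraries and at 0.078, 0.0551, 0.0711, 0.0331 and 0.0313 CPM in the EOD libraries, with adjusted p = 0.000379. Ces2b, a carboxylesterase, was at 0.258, 0.104, 0.163, 9.02 and 1.99 CPM in the AL libraries and at 0.026, 0, 0.0355, 0 and 0 CPM in the EOD libraries, with adjusted p = 0.00383. Both were highest in AL replicates 4 and 5, and without these adjusted p was 0.00111 for Cyp21a1 and 0.0118 for Ces2b. Fam83f was at 3.75, 3.35, 1.53, 1.21 and 1.25 CPM in the AL libraries and at 0.052, 0.0276, 0.142, 0.0994 and 0.094 CPM in the EOD libraries and Ttc25 was at 0.515, 2.38, 2.15, 0.484 and 0.506 CPM in the AL libraries and at 0.026, 0.0276, 0.0355, 0.0663 and 0.094 CPM in the EOD libraries (adjusted p = 2.78e-06 and 0.000127). On the rising side Tcf24, a bHLH factor gene, was at 0.20, 0.276, 0.0326, 0.0691 and 0.203 CPM in the AL libraries and at 1.2, 4.3, 0.995, 2.02 and 1.63 CPM in the EOD libraries, and Unc79, a subunit of a sodium leak channel, was at 0.0859, 0.138, 0.0653, 0.138 and 0.101 CPM in the AL libraries and at 3.69, 1.41, 1.28, 0.862 and 0.251 CPM in the EOD libraries. AL libraries were at the floor or little above it for both.

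Selenbp2, a selenium-binding protein, and Hcar2, the niacin and beta-hydroxybutyrate receptor, were lower in all EOD libraries, but again highest in AL replicates 4 and 5. Selenbp2 was at 26.3, 17.2, 105, 664 and 565 CPM in the AL libraries and at 4.39, 8.24, 8.99, 8.22 and 2.82 CPM in the EOD libraries (log2 difference -5.4 ± 1.07 SE, adjusted p = 0.00209). Hcar2 was at 0.744, 0.932, 0.294, 8.5 and 6.14 CPM in the AL libraries and at 0.104, 0.11, 0.178, 0.232 and 0.188 CPM in the EOD libraries (log2 difference -4.35 ± 0.91 SE, adjusted p = 0.00224). Without those 2 libraries the log2 differences were -2.88 for Selenbp2 (adjusted p = 0.00695) and -1.99 for Hcar2 (adjusted p = 0.0163). The EOD libraries lay near the floor for Hcar2.

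The shares of genes called were 25.9% of 290 lincRNAs and 27.3% of 216 antisense transcripts against 35.9% of 12731 protein-coding genes. The classes also differ in level, and the difference in share was not tested. On chromosome 12 the imprinted Dlk1-Dio3 transcripts, with positions on mm10 as in the deposited table, went opposite ways. Dio3os (chr12:110275384-110278068) was at 0.0859, 0.276, 0.131, 0.415 and 0.506 CPM in the AL libraries and at 1.09, 1.79, 2.13, 3.38 and 5.05 CPM in the EOD libraries, an increase (log2 difference 3.25 ± 0.61 SE, adjusted p = 0.000963, and 4.05 without AL replicates 4 and 5). For Dio3os AL replicate 1 was at the floor. Rian (chr12:109603940-109661716) was at 1.95, 1.48, 3.69, 10.3 and 13.4 CPM in the AL libraries and at 0.936, 0.606, 0.533, 0.862 and 0.658 CPM in the EOD libraries and Meg3 (chr12:109541001-109571726) was at 2.06, 2.8, 4.05, 12 and 14.5 CPM in the AL libraries and at 1.09, 0.358, 0.498, 1.89 and 2.29 CPM in the EOD libraries. Rian (log2 difference -3.08 ± 0.56 SE, adjusted p = 0.00081) and Meg3 (log2 difference -2.53 ± 0.60 SE, adjusted p = 0.00501) fell, both with AL replicates 4 and 5 highest, and without those 2 libraries the log2 differences were -1.68 (adjusted p = 0.00116) and -1.25 (adjusted p = 0.044). C4a, listed as a noncoding transcript in the deposited table, fell 8.46-fold from 88.8 ± 39.4 CPM in AL to 10.5 ± 2.5 CPM in EOD, and reads from the neighbouring complement C4 copy may be counted there. Antisense and overlapping genes are uncertain, since no source used here states the strand setting of the counting.

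The difference between the regimens was tested directly. EOD minus IF16 gave 2229 called genes, 16.1% of those tested, 1101 higher and 1128 lower, and 1931 genes passed the threshold against both AL and IF16 with the same sign. The 2229 calls became 3383 without EOD replicate 5, 1460 without EOD replicate 1 and 1418 without IF16 replicate 5. Among the steepest, Thrsp was -5.18 against IF16 (adjusted p = 0.000111), Hcn3 -3.99 and Chrna4 -3.88, and on the rising side Cyp4a14 was 3.04, Gadd45b 2.77 and Cyp4a10 2.56 on the log2 scale. Npnt, the matrix protein nephronectin, was at 0.744, 0.207, 1.04, 0.104 and 0.0675 CPM in the AL libraries and at 4.42, 1.96, 1.1, 1.33 and 2.07 CPM in the EOD libraries, and 0.15, 0.427, 0.329, 1.04 and 0.108 CPM in IF16 (log2 difference 2.39 ± 0.65 SE, adjusted p = 0.0214). Without AL replicates 4 and 5 its difference from AL was 1.74 (adjusted p = 0.0515). These 2 AL libraries lay at or below the floor for Npnt. Sgk2, a kinase, was at 62.8, 36.1, 39.7, 32.2 and 26.1 CPM in the AL libraries and at 95.3, 86.2, 74.4, 68.9 and 80.2 CPM in the EOD libraries. In IF16 it was 15.1, 17.7, 18.8, 20.3 and 10.7 CPM, below all AL libraries, and EOD was higher than both (log2 difference 2.29 ± 0.21 SE, adjusted p = 6.02e-06 against IF16).

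Gstm3, Dak and Gamt differed from IF16 about as much as from AL, with log2 differences of -3.34, -2.19 and -1.65 against IF16. Gys2 and Cyp1a2 were likewise lower than in IF16, with log2 differences of -1.21 and -1.22. A second set differed from AL and was not called against IF16: Bhlhe41 (-0.17, adjusted p = 0.768), Cry1 (-0.24, adjusted p = 0.389), Cyp39a1 (0.05, adjusted p = 0.908) and Isg15 (-0.18, adjusted p = 0.516). None of the 19 sinusoidal endothelial markers was called against IF16, and Clec4g had an IF16 mean of 48.9 CPM beside 53.1 CPM in EOD. A p that misses the threshold does not show that the regimens act alike on these genes.

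**Figure D5:**
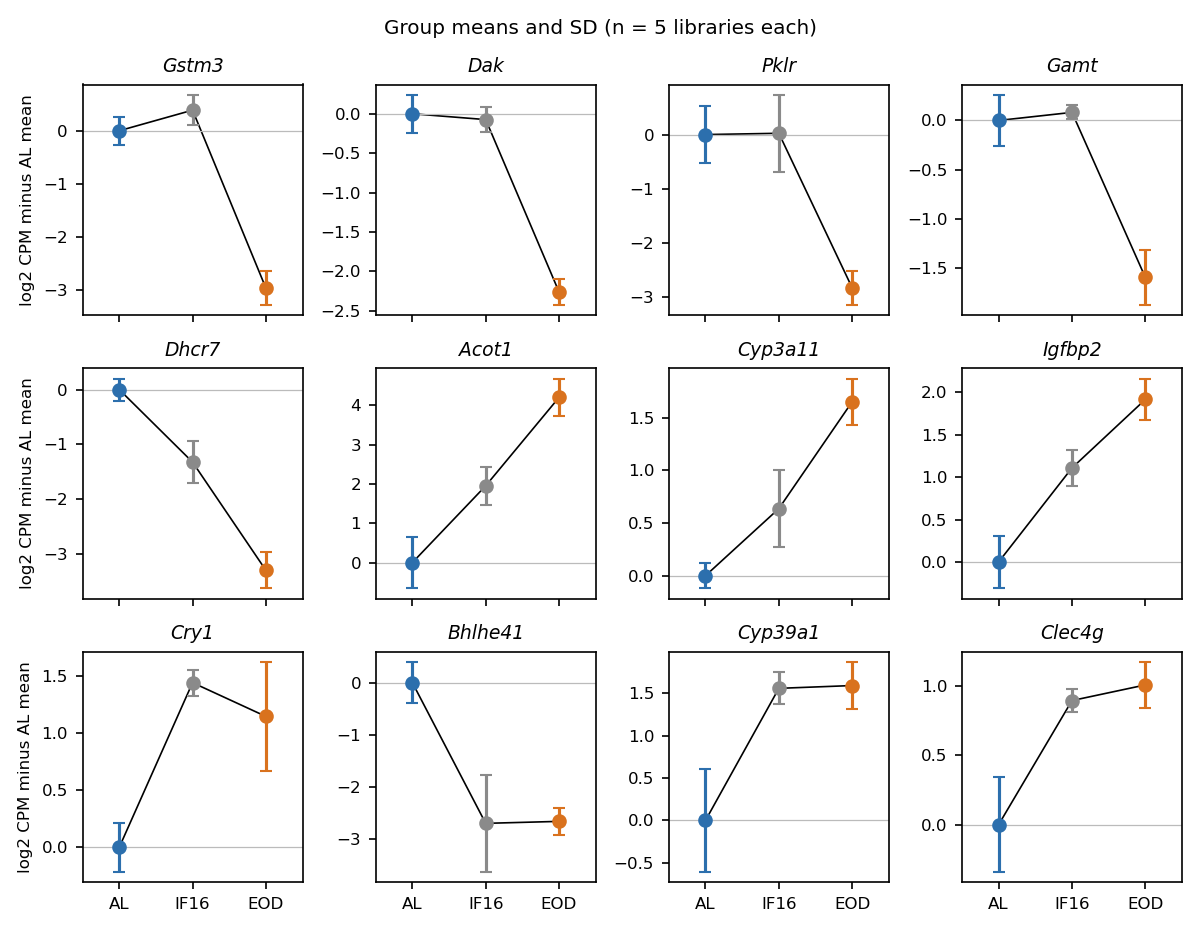
Each panel is a gene named in the text, and its points are the AL, IF16 and EOD group means (log2 CPM minus the AL mean). A line joins the means, and bars are standard deviations (n = 5 each). Gstm3, Dak, Pklr and Gamt keep their AL level in IF16 and are low in EOD, Dhcr7 and Acot1 are intermediate in IF16, and Cry1, Bhlhe41, Cyp39a1 and Clec4g have like levels in both fasting groups.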

How the data were processed

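Whole-liver poly(A)-selected RNA was sequenced in 15 libraries, 5 each from AL, IF16 and EOD. Per the labels' protocols, libraries were made with NEBNext Ultra reagents after poly-T bead selection and random hexamer priming. The authors deposited raw read counts per gene and FPKM values. STAR 2.5, HTSeq 0.6.1, DESeq2 and mm10 appear in the submitters' processing notes without a stated role. The deposited FPKM equal scaled counts in 100% of cells (relative tolerance 1e-08). Strand setting and annotation release are not given in the sources used here. Gene positions matched GENCODE M21 for 99.88% of the 34490 shared identifiers.

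Of 35275 genes in the table, 12666 had no count and 13837 passed the filter (edgeR 4.0.16 filterByExpr, minimum count 10). Counts were scaled by TMM and fitted with quasi-likelihood over the 15 libraries in 3 groups, and p-values were adjusted by Benjamini-Hochberg over all tested genes with a threshold of 0.05. CPM use TMM-scaled totals. Differences are log2 fold changes with standard errors. The deposited FPKM were used for limma 3.58.1 alternatives on log2(FPKM + 1) and log2(FPKM + 0.1). Other alternatives were DESeq2 1.42.0, other size factors, other filters, a replicate block, the 2 groups alone, and leaving libraries out. The code was tested on simulated data.

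The members and the 77 gene lists were chosen with earlier results of these data known. Genes were named by rule: the 12 largest increases and decreases and the 10 smallest p among called, annotated protein-coding genes of at least 1 CPM whose groups did not overlap, the 5 largest noncoding increases and decreases, the 6 largest each way against IF16 among genes also called in the same direction against AL, and the anchor genes and the 4 smallest p of each list. Acacb, Cry2, Ddx58, Etfdh, Fabp5, Fdft1, Fdps, Ifih1, Ldha, Nfil3, Nsdhl, Rsad2, Slc2a5 and Tagln were named after their values were seen. The rule names 610 genes and the text 209, of which 14 are outside the rule, so most genes that the rule names are not reported here, and the choice among them was made with their values known. RefSeq promoters (GRCm38.p6) were searched on both strands.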

Additional observations from a re-analysis of the deposited data

Results flagged for a closer look

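In 25 of 442 sets of 5 libraries of 1 regimen, 1 library lay far from the other 4, with a gap of more than 0.71 of the set's log2 range. Chance gives about 1 in 20 such sets. AL replicate 2 and EOD replicate 5 are the libraries named most often. Values of genes are in CPM. AL replicate 1 stood below its group for Igfbp2 (229 against 336 to 392). AL replicate 2 stood below its group for Eef1a1 (2450 against 3190 to 3520), F5 (260 against 298 to 312) and Gabarapl1 (156 against 223 to 251). The same held for Gpx1 (1080 against 1590 to 1820), Rpl9 (127 against 165 to 183) and Sepp1 (2530 against 3930 to 4380). The same held for Ugt1a1 (4.8 against 9.42 to 11.7). AL replicate 2 stood above its group for Chrna4 (21.4 against 5.16 to 7.71), Mlxipl (431 against 239 to 267) and Per3 (53.1 against 22.8 to 28.3). The same held for Tef (195 against 147 to 158). AL replicate 3 stood above its group for Cyp7a1 (72.4 against 40.7 to 46.8). AL replicate 4 stood above its group for Stard4 (136 against 92.3 to 101). AL replicate 5 stood below its group for Acsl1 (396 against 644 to 737). EOD replicate 1 stood below its group for Gys2 (62.6 against 94.1 to 111). EOD replicate 2 stood above its group for Ntrk2 (0.275 against 0.166 to 0.188). EOD replicate 3 stood below its group for Hamp (1360 against 1690 to 1750). EOD replicate 3 stood above its group for Serpina3m (254 against 185 to 203). EOD replicate 5 stood below its group for Acadm (444 against 581 to 620), Lepr (3.57 against 8.92 to 12.5) and Tdo2 (1260 against 1590 to 1710).

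The same gap appeared in 3 list means, where a score is the average over a list's genes of log2 CPM after subtracting each gene's mean over the 15 libraries. For mitochondrial beta-oxidation the score was 0.142 in EOD replicate 5 and 0.461 to 0.533 in the other 4 EOD libraries. For sinusoidal endothelial markers the score was 0.081 in EOD replicate 1 and 0.263 to 0.325 in the other 4 EOD libraries. For mitochondrially encoded genes the score was 0.033 in EOD replicate 5 and -0.776 to -0.598 in the other 4 EOD libraries.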

How the results depend on the processing

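Over 22 alternatives, 181 of 197 named genes that were called kept both direction and call in every fit that tested them. The total of 4867 genes called was 4096 with the 2 groups fitted alone, 5255 with DESeq2, 4383 without a filter and 4809 with a replicate block, and leaving out 1 library gave 3913 to 5726. Replicate numbers did not pair the samples: EOD and AL libraries of the same number had correlations of their deviations from the group means between -0.08 and 0.184, and 1 of 5 correlated best with its own number. Over all scalings, TMM included, the median log2 difference of all genes was -0.019 to -0.005 and 49.9% to 50.8% of calls were higher.

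The EOD minus IF16 count of 2229 was 1460 without EOD replicate 1 and ranged from 1418 without IF16 replicate 5 to 3383 without EOD replicate 5. The acute phase count of 10 lower genes was 4 with the 2 groups alone, 2 with the replicate block, 2, 3 and 1 with limma on log2(FPKM + 1), on log2(FPKM + 0.1) and without a filter, 6 to 12 when 1 library was left out, and 1 without AL replicates 4 and 5. The mitochondrially encoded share differed by -4.6 percentage points with exact permutation p = 0.125 under a replicate block, a test that cannot give less than 0.0625. Directions turned for G6pc (-0.145 without AL replicates 4 and 5), for Pck1 (-0.05 without AL replicate 1, -0.014 without AL replicate 2, -0.063 without EOD replicate 5, against up to 0.147 without AL replicate 5) and for S100a8 (0.21 without AL replicates 4 and 5). The causes were not tested, beyond the choice of libraries itself. Calls of Saa2, Lcn2, Orm2 and S100a8 were also lost under the replicate block. A count of 3 corresponds to 0.078 to 0.107 CPM in these libraries. This floor marks low values in the text, while the filter with a minimum count of 10 decided which genes were tested.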

Other observations

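Several gene groups not described above were counted too. The share called was 53.5% for SLC25 carriers, 18.2% for iron and BMP genes, 26.3% for complement and coagulation and 22.2% for major urinary proteins. It was 38.9% for male-biased and 69.2% for female-biased genes, against 35.2% of all tested genes. Among mitochondrial carriers of the SLC25 family 12 of 43 rose and 11 fell. Slc25a33, a pyrimidine nucleotide carrier, was at 7.38, 7.49, 7.38, 9.64 and 9.32 CPM in the AL libraries and at 26.6, 27.9, 42.9, 26.1 and 13.8 CPM in the EOD libraries and rose 3.33-fold (log2 difference 1.74 ± 0.22 SE, adjusted p = 2.83e-05). Of 22 iron and BMP genes 3 rose and 1 fell, against 5 and 2 without AL replicates 4 and 5. Slc40a1, the iron exporter ferroportin, rose by 0.86 and Bmp6, which with Bmp2 drives hepcidin, by 1.31. Hepcidin itself, Hamp, was not called (log2 difference -0.43, adjusted p = 0.23). Its difference was -0.61 without AL replicate 4 (adjusted p = 0.0444) and -0.79 without AL replicates 4 and 5 (adjusted p = 0.00372).

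Among clotting factors, F5 rose by 0.55 and F13b by 1.32, and F11 was at 43.6, 38.8, 57.8, 88.1 and 67.9 CPM in the AL libraries and at 15.7, 33, 22.5, 24.8 and 22.9 CPM in the EOD libraries, a 2.49-fold decrease (log2 difference -1.32 ± 0.25 SE, adjusted p = 0.00101). Without AL replicates 4 and 5, 14 of the complement and coagulation genes were higher and 1 lower, against 6 and 4 with all libraries. Genes known to differ between male and female liver moved in both directions. Of the male-biased list 1 rose and 6 fell of 18, and of the female-biased list 5 rose and 4 fell of 13. Without AL replicates 4 and 5 the male-biased list had 2 higher and 3 lower, and its median log2 difference turned from -0.55 to 0.31. The female-biased list then had 3 higher and 4 lower. Elovl3, a male-biased elongase, rose by 1.61 (adjusted p = 0.0215, and 0.0511 without AL replicate 5 or 0.0528 without EOD replicate 2). Its adjusted p was 0.0991 without AL replicates 4 and 5. Ntrk2, a neurotrophin receptor gene, fell by 2.71 (adjusted p = 0.00101) and lay near the floor in EOD, at 0.166 to 0.275 CPM. The major urinary protein genes, which are near-identical copies, fell in 4 of 18, and 2 were higher and 2 lower without AL replicates 4 and 5.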
